A study of Mus musculus with 9 samples.

Results

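Iron and folate are taken up in the upper small intestine by absorptive enterocytes. The 8 genes described here are Cybrd1, Slc11a2, Heph, Slc40a1, Fth1, Ftl1, Tfrc and Slc46a1. They were chosen by name for their roles in iron transport, iron storage and folate uptake, with earlier results of these data known. They were matched by Ensembl identifier among the 31685 genes listed. Of the 8, 6 were tested, because they reached 1 FPKM in 3 or more mice, and Slc40a1 and Cybrd1 did not.

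RNA came from the jejunum of 9 male wild-type C57BL/6J mice aged 6 to 8 weeks, collected on day 3, with 3 mice in each group. The control mice were not irradiated. The TAI mice were exposed once to 12 Gy of X-rays over the abdomen (total abdominal irradiation, TAI). The study's methods list this group as irradiation with PBS, whereas the control mice are labelled as having no treatment. The TAI/IVIg mice received the same dose and then 500 mg/kg of IVIg, a pooled human immunoglobulin, into a vein within 1 h and every 3 days after that. Values are FPKM, fragments of a gene scaled to gene length and to sequencing depth. The libraries held 16284386 to 18244535 reads that could be recovered from the FPKM values.

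The labels call the samples epithelial tissue, and enterocyte genes were abundant, with Fabp2, a fatty acid binding protein, at 6932 to 26628 FPKM. Smooth muscle was present as well, since Acta2, the smooth muscle actin, was at 44.2 to 304.5 FPKM. The summed FPKM of 11 smooth muscle and stromal markers was 130.1 to 596.4 in the TAI/IVIg mice, with TAI/IVIg mouse 3 the lowest, 540.0 to 696.1 in the control mice and 620.3 to 838.3 in the TAI mice. The B-cell gene Ms4a1, named with its values known, was at 29.9 FPKM in control mouse 3, 5.50 in TAI mouse 3 and 5.37 in TAI/IVIg mouse 2, each the highest of its group. In such bulk samples, fewer cells of a type and less RNA per cell cannot be told apart.

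Dietary iron is reduced at the brush border by the reductase that Cybrd1 encodes, and carried into the enterocyte by the divalent metal transporter DMT1, encoded by Slc11a2. It leaves the basal side through ferroportin, encoded by Slc40a1, where hephaestin, the copper oxidase encoded by Heph, oxidizes it for loading onto transferrin. Iron that stays in the cell is stored in ferritin, a shell of heavy (Fth1) and light (Ftl1) chains. The transferrin receptor, encoded by Tfrc, brings in transferrin-bound iron and is known to be high in dividing cells, among them those of the crypt. The proton-coupled folate transporter, encoded by Slc46a1, carries folate across the brush border.

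Several of these transcripts are also controlled by iron through a stem-loop, the iron-responsive element, to which iron regulatory proteins bind when iron is scarce. Bound in a 5′UTR, the proteins block translation, and bound in a 3′UTR they protect the transcript from decay. Shown here are the stem-loops of the canonical form found in the untranslated regions (UTRs) of the 8 genes, because they show where in the transcript the element lies. The search used the letters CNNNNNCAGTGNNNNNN on the transcript strand, with the 5 bases on each side of the loop able to pair, G with T included. Capitals mark CAGTG, the start of the loop, and coordinates are of GRCm38 with the GENCODE vM21 annotation.
Fth1, 5′UTR, chr19:9982738-9982754, plus strand: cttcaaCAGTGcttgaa
Ftl1, 5′UTR, chr7:45459785-45459801, minus strand: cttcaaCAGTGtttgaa
Slc40a1, 5′UTR, chr1:45925471-45925487, minus strand: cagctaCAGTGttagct
Tfrc, 3′UTR, site 1, chr16:32631225-32631241, plus strand: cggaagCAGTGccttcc
Tfrc, 3′UTR, site 2, chr16:32631604-32631620, plus strand: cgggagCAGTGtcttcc
Tfrc, 3′UTR, site 3, chr16:32631669-32631685, plus strand: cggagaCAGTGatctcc
Tfrc, 3′UTR, site 4, chr16:32631716-32631732, plus strand: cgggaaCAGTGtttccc
A match was present in 4 of the 8 genes, and in 0.731% of 21901 coding genes searched, 0.142% in a 5′UTR and 0.589% in a 3′UTR. It was not in every annotated coding transcript of these genes. It lay in 4 of 5 for Fth1, 1 of 2 for Ftl1, 1 of 4 for Slc40a1 and, at each site, 1 of 3 for Tfrc. The FPKM values are per gene and do not separate transcripts. The runs of Fth1 and Ftl1 differ in 1 base, C12T, which gives the Fth1 base, its position from 1 at the 5′ end of the printed run, and the Ftl1 base. It lies in the loop. No run with these letters and a paired stem was found in the annotated UTRs of Slc11a2, Cybrd1, Heph and Slc46a1. Transcripts of Slc11a2 are known to carry an iron-responsive element in a 3′UTR, which this search did not find, so a missing match does not mean that the element is missing. The match is a description of the sequence, and binding was not measured.

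Between the groups, 2 of the 6 tested genes stood far apart from the rest. Slc46a1 rose and Tfrc fell after irradiation, with and without IVIg, and the other 4 did not pass the test in either comparison with the control mice. Log2(FPKM + 1) was compared with limma, and a gene was called at a Benjamini-Hochberg adjusted p under 0.05 over the 13056 genes tested. In TAI against control, 1 member was called higher, where 8.81% of all tested genes were, and 1 was called lower, where 26.1% were. In TAI/IVIg against control, the counts were again 1 higher and 1 lower, beside 9.06% and 37.4% of all tested genes. Over all tested genes, the log2 fold change had a median of -0.24 for TAI against control and of -0.39 for TAI/IVIg against control. With the library medians set equal, these medians were 0.05 and 0.10, and the calls over all genes were 2159 higher and 1823 lower in TAI against control, in place of 1150 and 3411. For TAI/IVIg against control they were 2880 higher and 1894 lower, in place of 1183 and 4880. Small changes of the tested members are therefore given with their value on that scale too.

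**Figure D1:**
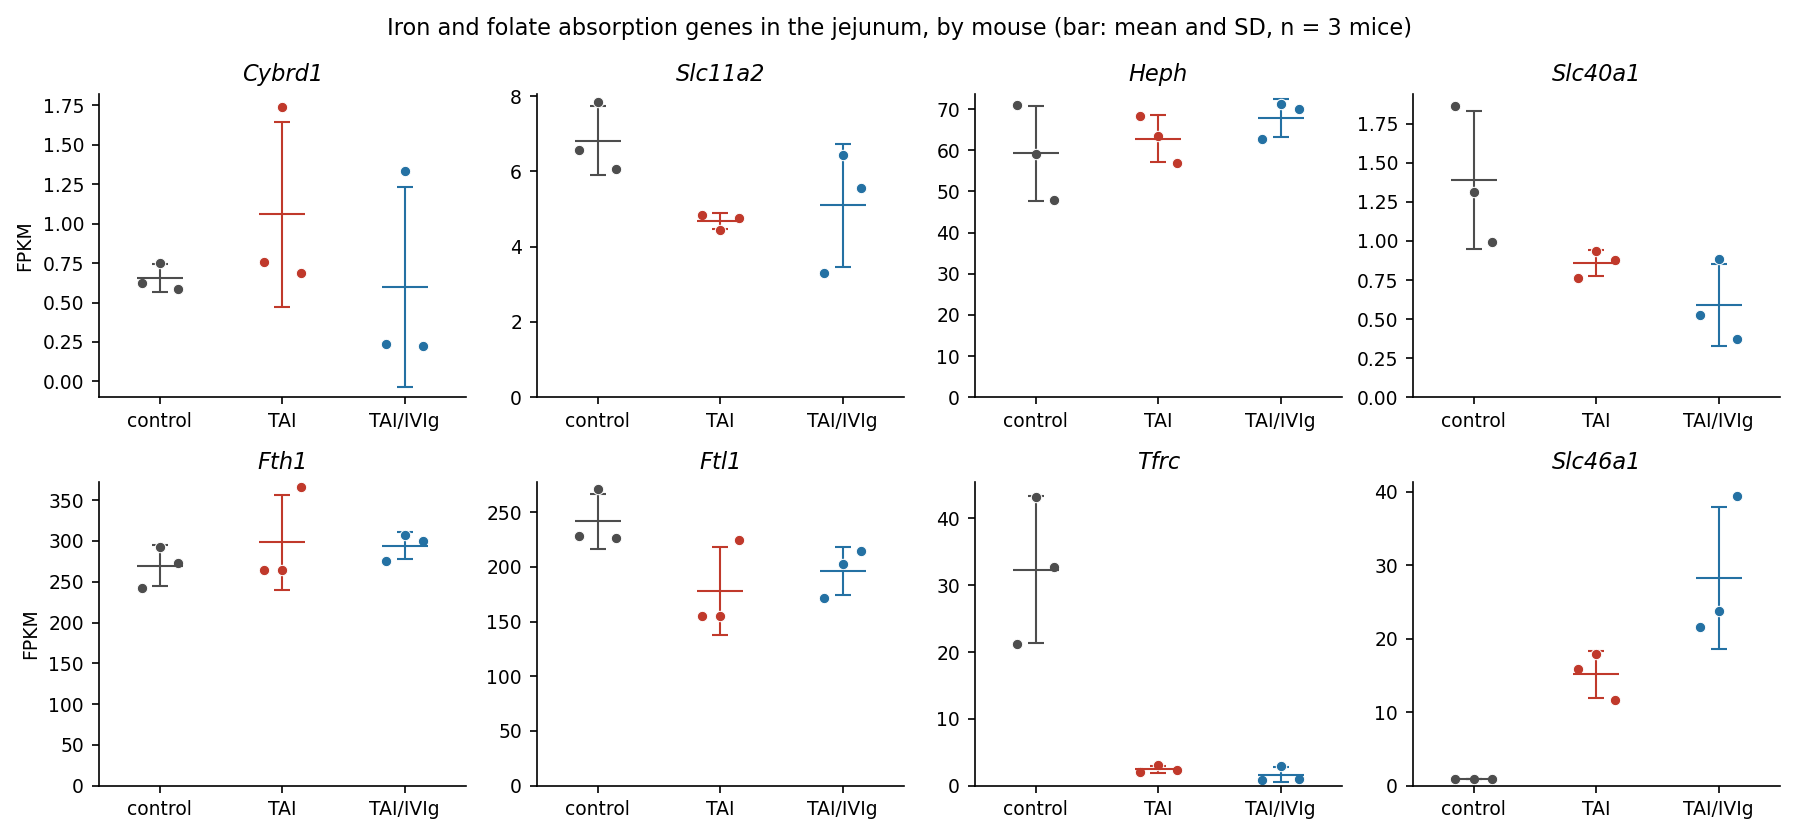
FPKM of the 8 genes (vertical axes, 1 panel per gene) in the control, TAI and TAI/IVIg mice (horizontal axes). Points are mice and bars are the mean and SD of 3 mice. Tfrc lies between 21.2 and 43.1 in control mice and at or below 3.02 in irradiated mice, and Slc46a1 lies below 1 in control mice and at or above 11.7 in irradiated mice.

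By mean level over the 9 mice the order was Fth1 (287 FPKM), Ftl1 (205), Heph (63.4), Slc46a1 (14.8), Tfrc (12.1), Slc11a2 (5.53), Slc40a1 (0.948) and Cybrd1 (0.771). The places of Slc46a1 and Tfrc depended on the group. In control mice Tfrc lay above Slc11a2 and Slc46a1 below Slc40a1, whereas in every irradiated mouse Slc46a1 ranked directly below Heph. The ranges of Slc40a1 and Cybrd1 over the 9 mice overlapped.

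Slc46a1 was low in jejunum that was not irradiated and rose after irradiation. Its FPKM was 0.934, 0.900 and 0.938 in the control mice, 15.9, 17.9 and 11.7 in the TAI mice and 21.6, 23.8 and 39.4 in the TAI/IVIg mice. The reads behind these values were 49 to 50 in control mice, 656 to 896 in TAI mice and 1198 to 2034 in TAI/IVIg mice. The 3 groups did not overlap, and every TAI/IVIg mouse was above every TAI mouse.

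The mean FPKM of Slc46a1 was 0.924 ± 0.0207 (SD, n = 3) in the control group, 15.1 ± 3.16 in the TAI group and 28.3 ± 9.69 in the TAI/IVIg group. The TAI mean was 16.4 times the control mean, and the TAI/IVIg mean 30.6 times. The log2 fold change, on the log2(FPKM + 1) scale that understates changes of low genes, was 3.05 ± 0.23 (SE) in TAI against control (limma adjusted p = 0.000207) and 3.88 ± 0.23 in TAI/IVIg against control (limma adjusted p = 5.18e-05).

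Between the irradiated groups, Slc46a1 was higher with IVIg by 0.83 ± 0.23 on the log2 scale. Its unadjusted limma p was 0.00579 and its adjusted p was 0.353, which did not pass the threshold. Smooth muscle and stromal markers went the other way, with a median of -1.15 and 11 of 11 below 0, none of them called, and TAI/IVIg mouse 3, the highest in Slc46a1, had the lowest sum of these markers. Their part in the difference was not tested. No overlap between these groups was seen for 1 of the 6 tested members and for 19.1% of all tested genes.

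Tfrc was the reverse. Its FPKM was 21.2, 43.1 and 32.7 in the control mice, 2.03, 3.02 and 2.30 in the TAI mice and 0.881, 2.89 and 1.07 in the TAI/IVIg mice. Every irradiated mouse was below every control mouse, and the TAI and TAI/IVIg mice overlapped. Mean FPKM was 32.3 ± 11.0 (SD, n = 3) in the control group, 13.2 times the TAI mean of 2.45 ± 0.512 and 20.0 times the TAI/IVIg mean of 1.61 ± 1.11.

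The log2 fold change of Tfrc was -3.23 ± 0.32 in TAI against control (limma adjusted p = 0.000487) and -3.69 ± 0.32 in TAI/IVIg against control (limma adjusted p = 0.000165). Between the TAI/IVIg and TAI groups it was -0.47 ± 0.32 (limma adjusted p = 0.523). Reads of Tfrc ran from 2273 to 4714 in control mice and from 98 to 304 in irradiated mice.

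**Figure D2:**
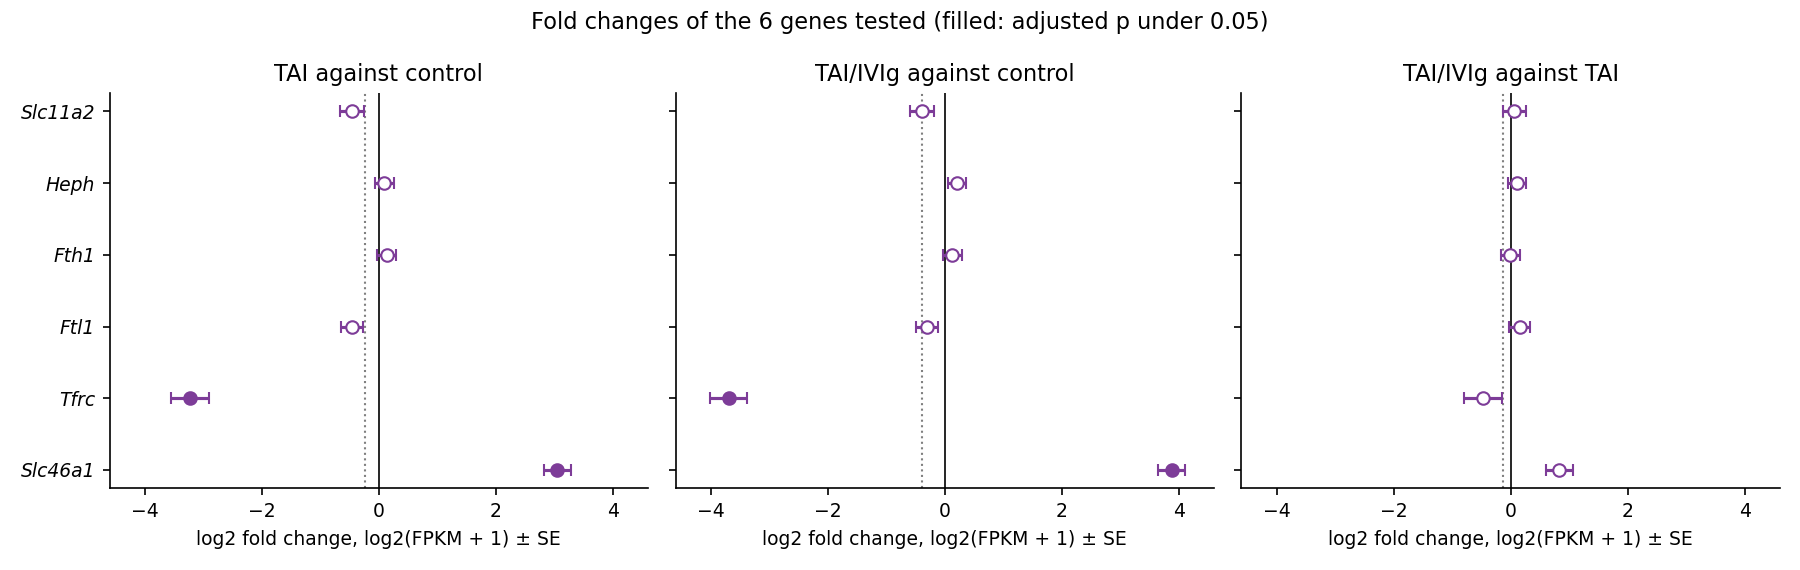
Log2 fold change with its SE (horizontal axes) of the 6 tested genes (vertical axis) in each comparison, from limma on log2(FPKM + 1) of 9 mice. Filled points have an adjusted p under 0.05, and the dotted line is the median of all tested genes. Tfrc and Slc46a1 stand at -3.23 and 3.05 in TAI against control, and no point is filled in TAI/IVIg against TAI.

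Markers of dividing cells moved with Tfrc. All 14 proliferation markers were called lower in both comparisons with the control mice, with median log2 fold changes of -1.95 and -2.35. Their summed FPKM was 54.9, 150.5 and 143.4 in the control mice, 11.5, 18.2 and 15.1 in the TAI mice and 5.51, 13.9 and 4.89 in the TAI/IVIg mice. In each group the mouse with the highest sum also had the highest Tfrc. Their part in the fall of Tfrc was not tested.

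**Figure D3:**
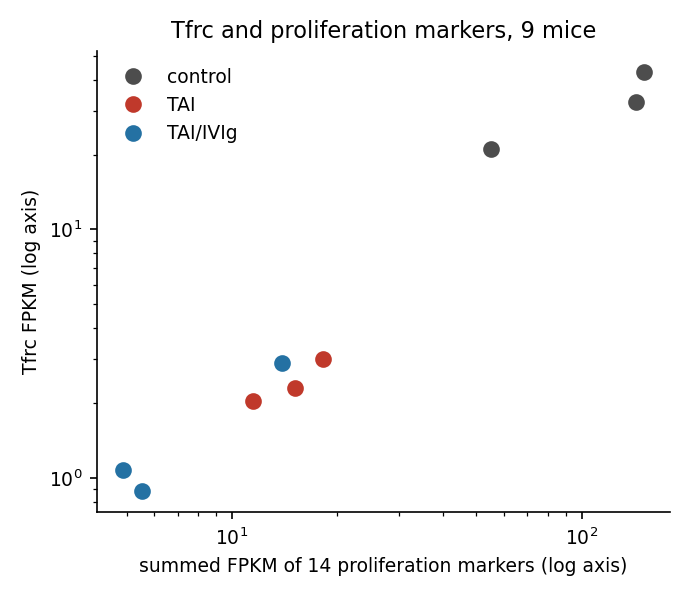
FPKM of Tfrc (vertical, log axis) against the summed FPKM of 14 proliferation markers (horizontal, log axis), a point per mouse. Control mice lie at sums of 54.9 to 150.5 and irradiated mice at sums of 4.89 to 18.2, and the mouse with the highest sum of each group is also the highest in Tfrc.

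Most enterocyte markers were higher where Slc46a1 was. Of 14 markers, 8 were called higher in TAI against control and 10 in TAI/IVIg against control, and none was called lower. Their summed FPKM was 16152 to 25530 in control mice, 35090 to 55306 in TAI mice and 49797 to 55293 in TAI/IVIg mice. The markers were uneven, since Treh, the brush border trehalase, had a log2 fold change of 3.57 ± 0.29 in TAI against control, and Vil1, the microvillus protein villin, one of -0.05 ± 0.18. Sis, the brush border sucrase-isomaltase, had values of -1.12 ± 0.41 in TAI and -0.95 ± 0.41 in TAI/IVIg against control (limma adjusted p = 0.0631 and 0.0866). These markers were named with their values known.

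Taken against the mean log2(FPKM + 1) of the 14 enterocyte markers in the same mouse, Slc46a1 differed from control mice by 1.79 in TAI and by 2.27 in TAI/IVIg mice. For Tfrc the differences were -4.49 and -5.30. The groups did not overlap in these 4 comparisons, nor for any of the other 6 members in either comparison with control. Each of these exact permutation p-values was 0.10, the smallest that 3 mice against 3 allow. No share over all tested genes is given on this scale. The other 6 members gave differences of -1.72 to -0.98 in TAI against control and of -2.19 to -1.40 in TAI/IVIg against control. With 6 pan-epithelial markers as the reference instead, the differences were 3.36 and 4.49 for Slc46a1 and -2.92 and -3.08 for Tfrc, while the other 6 lay between -0.15 and 0.59 and between 0.03 and 0.82. The sign thus turned with the reference for 3 of those 6 in TAI, Cybrd1, Heph and Fth1, and for all 6 in TAI/IVIg. Over the 24 values by member and comparison, no Benjamini-Hochberg adjusted p was under 0.126.

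The transporters on either side of the enterocyte had smaller differences. Slc11a2 was at 6.57, 7.85 and 6.05 FPKM in the control mice, 4.85, 4.45 and 4.75 in the TAI mice and 3.29, 6.45 and 5.56 in the TAI/IVIg mice. The TAI mice were all below the control mice, and the TAI/IVIg mice spread from below the TAI mice into the range of the control mice. Its log2 fold change was -0.46 ± 0.20 in TAI against control (limma adjusted p = 0.110) and -0.39 ± 0.20 in TAI/IVIg against control (limma adjusted p = 0.139). With the library medians equal these values were -0.17 and 0.10. A fit of the 6 control and TAI mice alone gave the same log2 fold change and called it, with a limma adjusted p of 0.0356, as did the fit without TAI/IVIg mouse 1 (limma adjusted p = 0.0269). That mouse had the lowest Slc11a2 of all and belongs to neither group, so the call turned on the spread that the 3 groups share. With a block for the replicate number in the 6-mouse fit, Slc11a2 was not called.

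Heph, the oxidase of iron export, was at 70.9, 59.1 and 47.9 FPKM in control mice, 68.3, 63.4 and 56.8 in TAI mice and 62.7, 71.2 and 70.0 in TAI/IVIg mice. All 3 groups overlapped. Its log2 fold change was 0.10 ± 0.16 in TAI against control (limma adjusted p = 0.659) and 0.21 ± 0.16 in TAI/IVIg against control (limma adjusted p = 0.298). With the library medians equal, the values were 0.38 (limma adjusted p = 0.228) and 0.70, and the second passed the test (limma adjusted p = 0.0407).

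Slc40a1, the iron exporter, and Cybrd1, the reductase, were low and did not enter the test. Slc40a1 was at 1.87, 1.31 and 0.995 FPKM in control mice, 0.765, 0.935 and 0.877 in TAI mice and 0.525, 0.883 and 0.371 in TAI/IVIg mice, from 56 to 292 reads. All irradiated mice were below all control mice. On recovered reads, with all genes of at least 10 reads in the fit, limma voom gave a log2 fold change of -0.65 in TAI against control (adjusted p = 0.183) and of -1.27 in TAI/IVIg against control (adjusted p = 0.0177). Without the filter, limma on log2(FPKM + 1) gave -0.58 in TAI/IVIg against control, with an adjusted p of 0.0635, so the call rested on the fit of reads. That fit of reads was scaled to total reads, and Slc40a1 has no value with equal library medians. Less the median of all tested genes, the value of -0.58 became -0.19.

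Cybrd1 rested on 20 to 151 reads. Its FPKM was 0.625, 0.753 and 0.584 in control mice, 0.754, 1.74 and 0.688 in TAI mice and 0.240, 1.33 and 0.223 in TAI/IVIg mice. A single mouse stood above the others in each irradiated group, and all groups overlapped. No fit called it.

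The ferritin chains were the most abundant members. Fth1 was at 242, 292 and 273 FPKM in control mice, 265, 265 and 366 in TAI mice and 276, 307 and 300 in TAI/IVIg mice, with overlap between all groups. Its log2 fold change was 0.13 ± 0.16 in both comparisons with the control mice (limma adjusted p = 0.546 and 0.532). With the library medians equal, the value was 0.42 in TAI against control (limma adjusted p = 0.127), and it was 0.62 in TAI/IVIg against control and passed the test (limma adjusted p = 0.0342).

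Ftl1 was at 228, 271 and 226 FPKM in control mice, 155, 155 and 224 in TAI mice and 171, 203 and 214 in TAI/IVIg mice. No irradiated mouse reached the lowest control mouse, although TAI mouse 3 came within 2 FPKM of it. The log2 fold change was -0.46 ± 0.18 in TAI against control (limma adjusted p = 0.0798) and -0.30 ± 0.18 in TAI/IVIg against control (limma adjusted p = 0.196). Without TAI mouse 3, the first value was -0.63 and was called, with a limma adjusted p of 0.0275. With the library medians equal, the values were -0.17 and 0.19. Reads of Ftl1 can be shared with near-identical copies, of which Ftl1-ps1 was listed at 4.96 to 9.81 FPKM.

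The ratio of the chains is unaffected by any single scaling factor per library. Fth1 divided by Ftl1, in FPKM, was 1.06, 1.08 and 1.21 in control mice, 1.71, 1.71 and 1.63 in TAI mice and 1.61, 1.51 and 1.40 in TAI/IVIg mice. The 3 groups did not overlap, with the control mice lowest and the TAI mice highest. The mean was 1.12 ± 0.0806 (SD, n = 3) in the control group, 1.68 ± 0.0463 in the TAI group and 1.51 ± 0.105 with IVIg added. On the log2 scale the ratio was higher by 0.59 ± 0.06 (SE) in TAI than in control, a 1.51-fold difference, and by 0.43 ± 0.08 in TAI/IVIg than in control. Between TAI/IVIg and TAI the difference was -0.16 ± 0.06. Each of the 3 two-sided exact permutation tests gave p = 0.10, the smallest that 3 against 3 allow.

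**Figure D4:**
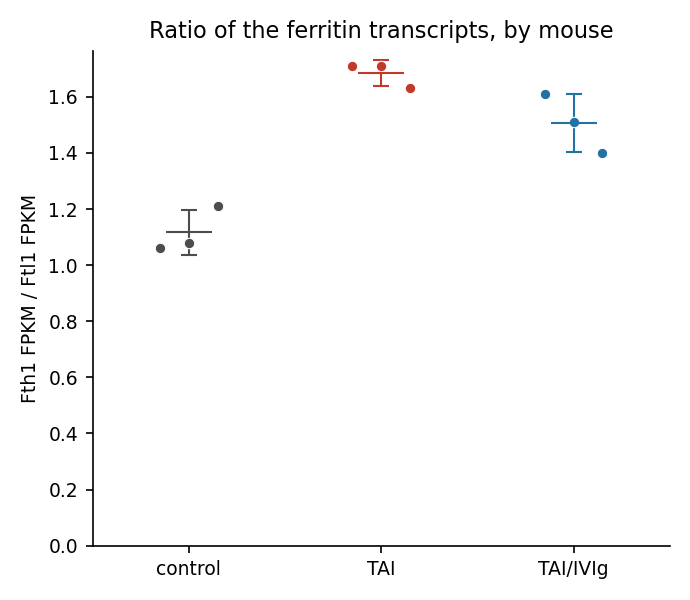
Ratio of Fth1 FPKM to Ftl1 FPKM (vertical axis) in the control, TAI and TAI/IVIg mice. Points are mice and bars are the mean and SD of 3 mice. Control mice lie at 1.06 to 1.21, TAI/IVIg mice at 1.40 to 1.61 and TAI mice at 1.63 to 1.71.

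In TAI/IVIg against TAI, 0 members were called higher or lower, and 0.0% of all tested genes were, the smallest limma adjusted p being 0.353. At an unadjusted p under 0.05 there were 1 member, Slc46a1, and 214 genes higher and 1466 lower among all tested genes. Limma voom on recovered reads called 0 members and 0 genes as well. The differences of the other 4 tested members ran from -0.01 to 0.16 on the log2 scale, with SE of 0.16 to 0.20. For the untested Slc40a1 and Cybrd1 they were -0.23 and -0.40 without the filter (limma adjusted p = 0.671 and 0.664). Groups without overlap in TAI against control were seen for 4 of the 6 tested members, where 53.0% of tested genes had none, and in TAI/IVIg against control for 3, beside 55.8%. These comparisons share the control mice.

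The genes whose log2(FPKM + 1) was most like that of each member over the 9 mice are given as a description, since the points include the group differences. Slc46a1 was closest to Dio1, a deiodinase that activates thyroid hormone (Pearson r = 0.998), and to Pnp, a purine phosphorylase (r = 0.993). Dio1 averaged 0.668 FPKM in the control group, 15.6 in the TAI group and 32.2 in the TAI/IVIg group. Tfrc was closest to Stt3b, a subunit of the enzyme that attaches N-glycans, and Ube2n, a ubiquitin-conjugating enzyme (r = 0.998 and 0.997). Slc11a2 was closest to Gpd1 and Stard4 (r = 0.973 and 0.971), Heph to Mep1b and Iqgap2 (0.969 and 0.942), and Ftl1 to Bcap31 and Uqcrq (0.971 and 0.963). For the remaining genes the highest r was 0.909 for Fth1 with Ptafr, 0.954 for Slc40a1 with 4732463B04Rik and 0.937 for Cybrd1 with Ighv1-58. The next were 2310016G11Rik for Fth1 (0.907), Lyve1 for Slc40a1 (0.944) and Wdfy3 for Cybrd1 (0.933).

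Around the members, 102 tested genes of 8 lists on iron, heme, folate and hypoxia were followed. In TAI against control, 7 were called higher and 34 lower, and in TAI/IVIg against control 7 higher and 48 lower. Of all tested genes, 8.81% were called higher and 26.1% lower in TAI, and 9.06% and 37.4% in TAI/IVIg. The counts of each list below are to be read beside these shares. The median log2 fold changes of the 102 genes were -0.35 and -0.45, beside -0.24 and -0.39 for all tested genes. With the library medians equal, 15 were called higher and 22 lower in TAI and 17 and 26 in TAI/IVIg, and 29 of the 41 calls and 33 of the 55 calls were made there too. Among all 13056 tested genes, 2159 were called higher and 1823 lower on that scale in TAI, and 2880 and 1894 in TAI/IVIg. Of those 55, 5 had the other sign on that scale, Hfe, Arnt, Iscu, Isca1 and Ciao1, which were named after that was seen. In TAI/IVIg against TAI 0 were called by limma or by limma voom, and 18 had an unadjusted limma p under 0.05.

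Among the other iron transporters and their regulators, 1 was called higher and 1 lower of 14 tested in TAI against control and 0 higher and 4 lower in TAI/IVIg against control. With equal library medians the counts were 2 higher and 1 lower in TAI and 1 higher and 0 lower in TAI/IVIg. Steap4, a metalloreductase, rose by a log2 fold change of 1.79 ± 0.42 in TAI against control (limma adjusted p = 0.0116). In TAI/IVIg against control its value was 0.57 ± 0.42 and was not called (limma adjusted p = 0.28). Slc25a37, the mitochondrial iron importer mitoferrin, fell by 1.30 on the log2 scale in TAI and by 1.14 in TAI/IVIg, where the call was lost with equal medians (limma adjusted p = 0.0773). Hamp, the iron hormone hepcidin, had a log2 fold change of 1.35 ± 0.49 in TAI against control (limma adjusted p = 0.0600, and 0.0387 with equal medians), from a mean of 0.604 FPKM in control to 3.49 in TAI mice. In TAI/IVIg against control the value of Hamp was 0.59 ± 0.49 (limma adjusted p = 0.343, and 0.128 with equal medians). Steap1 had a log2 fold change of -0.37 ± 0.21 in TAI against control and fell by 0.80 in TAI/IVIg, a call that was lost with equal medians (limma adjusted p = 0.261). Lcn2, the siderophore-binding lipocalin, differed by -0.92 between the TAI/IVIg and TAI groups (limma adjusted p = 0.353).

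Of 13 genes of iron sensing and ferritin handling, 1 was called higher and 3 lower in each comparison with the control mice. Among all tested genes, 26.1% and 37.4% were called lower there. With equal library medians, the counts of the list were 3 higher and 1 lower in TAI and 5 higher and 1 lower in TAI/IVIg. Epas1, which encodes the hypoxia-inducible factor HIF-2α, a known activator of iron absorption genes, rose by 0.68 ± 0.14 in TAI (limma adjusted p = 0.00651). In TAI/IVIg, Epas1 had a value of 0.36 ± 0.14 (limma adjusted p = 0.0564), and 0.85 with equal medians (limma adjusted p = 0.00384). The gene called higher there was Fbxl5 (0.44 ± 0.16, limma adjusted p = 0.0444), named with its values known. Pcbp1, an iron chaperone that loads ferritin, fell by 0.94 in TAI and by 1.02 in TAI/IVIg. Egln3, a prolyl hydroxylase that marks these factors for decay, fell by 0.52 and 0.63, and neither call was made with equal medians (-0.23 and -0.14). The log2 fold change of Ncoa4, the receptor for ferritin breakdown, was 0.28 ± 0.14 in TAI (limma adjusted p = 0.139) and 0.57 with equal medians (limma adjusted p = 0.0252). Over the 13 genes the medians were -0.04 in TAI and -0.07 in TAI/IVIg, and 0.25 and 0.42 with equal medians. Of the iron regulatory proteins themselves, Aco1 fell by 0.67 in TAI (limma adjusted p = 0.0312, and 0.190 with equal medians) and Ireb2 had a value of 0.18 ± 0.17. Aco1 had a value of -0.39 ± 0.20 in TAI/IVIg against control (limma adjusted p = 0.140), and 0.10 with equal medians. Ireb2 had one of 0.43 ± 0.17 there (limma adjusted p = 0.0659), and 0.92 with equal medians, which passed the test (limma adjusted p = 0.00363). Both were named with their values known.

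Among hypoxia targets, 2 of 13 were called higher and 4 lower in TAI, and 3 and 5 in TAI/IVIg. With equal library medians, the balance turned to 5 higher and 2 lower in TAI and to 4 and 3 in TAI/IVIg, with medians of -0.07 and 0.12. Vegfa, a vessel growth factor, rose by 1.97 and 1.89 on the log2 scale, and Adm, the vasodilator adrenomedullin, by 1.26 and 0.93. Car9, a carbonic anhydrase, fell by 1.96 and 2.20, and Pdk1, a kinase that restrains pyruvate oxidation, by 1.51 and 1.74. Calls were thus made in both directions.

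Genes that build iron-sulfur clusters had calls in 1 direction. In iron-sulfur cluster assembly, 11 of 18 were called lower in TAI and 15 in TAI/IVIg, beside 26.1% and 37.4% of all tested genes. In this list, 0 were called higher in either. The medians were -0.69 and -0.72, and -0.41 and -0.23 with equal library medians, where 7 were called lower in each. Nfu1, a cluster carrier, fell by 1.04 and 1.25, and Glrx5, a glutaredoxin that transfers clusters, by 1.39 and 1.32. In heme synthesis, 2 of 8 were called lower in each comparison, beside 26.1% and 37.4% of all tested genes, and 0 were called higher. With equal library medians 1 was called lower in each and 2 higher in TAI/IVIg, Alad (0.76) and Urod (0.61), named with their values known. Alas1, the enzyme of the first step, fell by 0.86 and 0.77 and was not called with equal medians. The list's medians of -0.26 and -0.31 turned to 0.02 and 0.18 on that scale.

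In heme uptake, breakdown and export, 2 of 10 were called higher and 2 lower in TAI, and 1 and 4 in TAI/IVIg. With equal library medians the counts were 2 and 2 in TAI and 2 higher and 1 lower in TAI/IVIg, and the median in TAI/IVIg was 0.14 in place of -0.35. The biliverdin reductases Blvra and Blvrb fell by 0.66 and 1.04 in TAI. Lrp1, a receptor for the heme-hemopexin complex, rose by 1.19 in TAI and by 1.15 in TAI/IVIg. Hp, the hemoglobin-binding haptoglobin, rose by 1.92 ± 0.61 in TAI (limma adjusted p = 0.0390), and differed by -1.95 between the TAI/IVIg and TAI groups (limma adjusted p = 0.353). Red blood cell genes were low, with Hbb-bs, a beta-globin, at 0.869 to 5.39 FPKM.

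**Figure D5:**
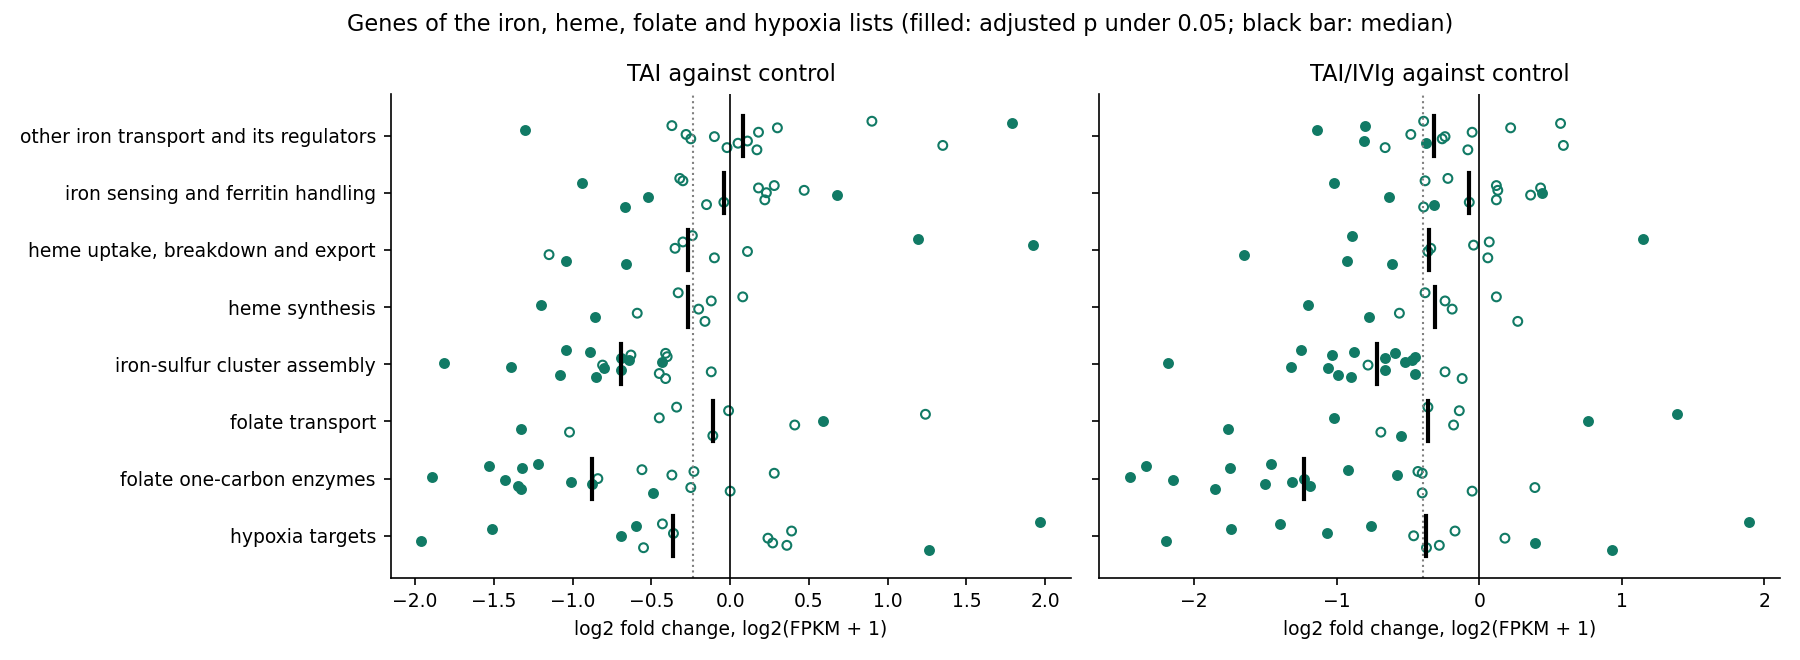
Log2 fold changes (horizontal axes) of the tested genes of 8 lists (rows) in TAI and in TAI/IVIg against control, a point per gene. Filled points have a limma adjusted p under 0.05, black bars are list medians and the dotted line is the median of all tested genes. All 18 iron-sulfur cluster genes lie below 0 in both panels, and with equal library medians 17 and 13 of them do.

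Other folate transport genes had calls in both directions. Slc19a1, the reduced folate carrier, averaged 1.50 FPKM in the control group, 1.41 in the TAI group and 1.23 in the TAI/IVIg group, with a log2 fold change of -0.01 ± 0.26 in TAI against control (limma adjusted p = 0.977). The folate receptors Folr1 and Folr2 had group means of at most 0.102 FPKM. Of the 9 tested genes of folate transport, 1 was called higher and 1 lower in TAI, and 2 and 3 in TAI/IVIg. With equal library medians these were 3 and 1, and 2 and 2. Abcg2, an apical exporter with folate among its substrates, rose by 0.59 ± 0.13 and 0.76 ± 0.13, and Abcc3, a basal exporter, fell by 1.33 and 1.76. Ggh, which removes glutamates from folate, had a log2 fold change of 1.24 ± 0.43 in TAI (limma adjusted p = 0.0527, and 0.0276 with equal medians) and rose by 1.39 in TAI/IVIg (limma adjusted p = 0.0277). Slc19a1 and the folate receptors were named with their values known.

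Among folate one-carbon enzymes, 10 of 17 were called lower in TAI and 12 in TAI/IVIg, beside 26.1% and 37.4% of all tested genes. In this list, 0 were called higher in either, and the medians were -0.88 and -1.23. With equal library medians these medians were -0.59 and -0.74, with 7 and 11 called lower and 1 called higher in TAI/IVIg. Mthfd2, a mitochondrial folate dehydrogenase, fell by 1.89 ± 0.27 and 2.45 ± 0.27, and Dld, a subunit of the glycine cleavage system, by 1.35 and 1.19. Proliferation markers were lower in the same mice, as given beside Tfrc, and their part in the iron-sulfur and folate enzyme counts was not tested.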

How the data were processed

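Jejunal RNA of 9 mice was analysed, 3 per group, and all samples carry the same batch label. FPKM values were deposited by the authors for each mouse separately, and all 9 columns were used. The submitters' processing notes name FastQC, Trimmomatic, STAR, featureCounts and DESeq2 and the builds mm10 and GRCm38, without versions or roles, and the study's methods name no test for differential expression. FPKM is relative to the library total, so a rise of abundant transcripts lowers the values of others.

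Whole reads were recovered from the FPKM steps for 100% of the 31685 genes (tolerance 0.003, with a common factor for 490 genes), and 98.3% of the implied lengths equalled the exon length in GENCODE vM21. Group means of log2(FPKM + 1) were estimated over all 9 mice in limma 3.58.1 (R 4.3.3) with a trended empirical Bayes step, followed by Benjamini-Hochberg adjustment over 13056 genes. The limma fit was tested on simulated reads that held no shift across all genes. UTRs were searched for the stem-loop in the GENCODE vM21 annotation, whose implied lengths are those above. For each list, the genes named were up to 2 with the smallest unadjusted p per direction in TAI against control and up to 1 in TAI/IVIg against TAI, and for each member the 2 genes of highest correlation. Some genes of the rule are left to the counts, and some are not reported here. The 8 members and all lists were chosen with earlier results of these data known.

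Deviations from the group mean had correlations of 0.271, 0.241 and 0.308 between same-numbered control and TAI mice. Those of TAI/IVIg mice with the others were -0.296 to 0.201. Differently numbered mice were not compared, so whether the numbers pair mice was not tested, and the labels give them no meaning. Alternatives were quantile normalization, equal library medians, a smaller pseudocount (0.1), all genes untouched by the filter, only genes averaging 5 FPKM, no trend, a replicate block, fits of the 6 mice compared, and each mouse left out. Limma voom on reads, the 6-mouse fit with the block and a fit without the mouse highest in Ms4a1 of each group were added after seeing the data. Limma p-values set a group difference against the spread between these mice, estimated over the groups fitted and moderated across genes.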

Additional observations from a re-analysis of the deposited data

How the results depend on the processing

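Tfrc and Slc46a1 were called in both comparisons with control under each alternative run. Log2 fold changes of Tfrc ran from -3.69 to -2.94 (largest limma adjusted p 0.0134) and from -4.47 to -3.20 (0.0047), and those of Slc46a1 from 2.93 to 4.30 (0.00965) and from 3.62 to 5.36 (0.00448). With the replicate block the members called were 2, 2 and 0, as without it, and the block changed no call of a member in the fit of all mice. With each mouse left out they were 2 to 3 in TAI against control, 2 to 2 in TAI/IVIg against control and 0 to 0 in TAI/IVIg against TAI. With equal library medians and with voom at median-ratio sizes, 4 members were called in TAI/IVIg against control, as Heph (0.70 and 0.69) and Fth1 (0.62 and 0.61) joined. The log2 Fth1 to Ftl1 ratio, with a mouse left out, ran from 0.56 to 0.65, 0.38 to 0.49 and -0.21 to -0.11.

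Signs turned only among uncalled members. In TAI/IVIg against control, Slc11a2 was 0.10 with equal medians, 0.081 with quantile normalization and 0.014 with voom at median-ratio sizes, and Ftl1 was 0.19 with equal medians and 0.18 with that voom fit. In TAI/IVIg against TAI, Fth1 was 0.20 and 0.18 under those 2 scalings. Without the mouse highest in Ms4a1 of each group, Fth1 was -0.008 in TAI against control and 0.12 in TAI/IVIg against TAI, and Slc11a2 -0.09 there. With a mouse left out, Heph ran from -0.046 to 0.23 and Fth1 from -0.02 to 0.21 in TAI against control, and Slc11a2 from -0.10 to 0.30 and Fth1 from -0.083 to 0.15 in TAI/IVIg against TAI. The cause was not tested.

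Counts of calls over all genes moved more. They ran from 572 to 2159 higher and 1188 to 3721 lower in TAI against control (1150 and 3411), from 806 to 2880 and 1894 to 5542 in TAI/IVIg against control (1183 and 4880), and from 0 to 4 lower in TAI/IVIg against TAI (0). Iron-sulfur genes called ran from 5 to 16 (11) and 5 to 16 (15), folate enzymes from 2 to 12 (10) and 3 to 13 (12), hypoxia targets from 2 to 9 (6) and 6 to 9 (8), other iron transport from 0 to 3 (2) and 1 to 5 (4), iron sensing from 1 to 5 (4) and 2 to 6 (4), heme handling from 3 to 5 (4) and 2 to 7 (5), heme synthesis from 1 to 3 (2) and 1 to 4 (2), and folate transport from 1 to 4 (2) and 3 to 5 (5), each for TAI and then TAI/IVIg against control. Cybrd1 rested on 20 to 151 reads, Slc40a1 on 56 to 292 and Slc46a1 in control mice on 49 to 50.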
